A study of Homo sapiens with 12 samples.

Results

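U87 cells given sgPNA-21 alone were compared with untreated U87 cells, which addresses what a 72 h exposure to an anti-miR-21 agent changes in the polyadenylated RNA of a glioblastoma line. The comparison takes 6 of the 12 libraries of the study, 3 labelled PNA-21 and 3 labelled control, chosen by their labels alone. U87 is an established human glioblastoma cell line, and all 4 groups were made from it. The PNA-21 cells received 150 nM sgPNA-21, a peptide nucleic acid directed at miR-21, carried in nanoparticles called BNP in the protocol. Peptide nucleic acids are synthetic oligomers whose bases sit on a backbone like that of a peptide. Control cells are labelled WT and were untreated. No group of cells with empty nanoparticles or an unrelated PNA is described among these samples, so the agent and its carrier cannot be told apart in a difference from control. The other 2 groups received 150 nM sgPNA-10b (PNA-10b) or both agents at 150 nM each (PNA-10b+21), 3 libraries each, and serve below as a second setting in which sgPNA-21 was added, where the total PNA dose differs too. Whether the 3 replicates were separate cultures is not given, so the p-values set each difference against library spread that may be technical. In bulk RNA, fewer cells of a kind and less RNA per cell cannot be told apart.

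MicroRNAs are short RNAs that guide Argonaute proteins to messenger RNAs, mostly through pairing of the seed with the 3′ untranslated region, and lower the amount or the translation of those messages. miR-21-5p is abundant in glioblastoma and in many other tumours, and its reported targets include PDCD4, an inhibitor of translation initiation, the protease inhibitors TIMP3 and RECK, and SPRY2, a brake on receptor tyrosine kinase signalling. An agent directed at miR-21 is meant to relieve these messages. Poly(A) libraries do not measure the mature microRNA, so its level in these cells was not analysed here.

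The mature miR-21-5p sequence of RefSeq (GRCh38.p14, chr17:59841273-59841294, plus strand) is shown with the seed, bases 2 to 8, in capitals. The target sites are defined by the seed, and the agent's own sequence was not in the sources used here. Below it stand, in DNA letters, 30-base windows of the 3′ UTRs of 6 reported targets (GENCODE 29, GRCh38), with the longest match to the seed in capitals. All 6 sites are 8mers, the seed match followed by an A.
miR-21-5p: uAGCUUAUcagacugauguuga
PDCD4: ttcttaagtggaatattctaATAAGCTAcc
TIMP3: gcatatacccacatggggacATAAGCTAat
SPRY2: cttggtgacccatgtattgcATAAGCTAaa
CDC25A: cccaggcttggctgcctgacATAAGCTAaa
PELI1: caggactacattataaatttATAAGCTAag
YOD1: agaaggctctgggttttccaATAAGCTAtg
These windows lie at chr10:110898310-110898339 (plus strand) in PDCD4, chr22:32860389-32860418 (plus) in TIMP3, chr13:80336513-80336542 (minus) in SPRY2, chr3:48158196-48158225 (minus) in CDC25A, chr2:64094657-64094686 (minus) in PELI1 and chr1:207048947-207048976 (minus) in YOD1. The messages that carry them did not move together, as described below.

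Total counts were 12846676 to 17053150 in control and 14634738 to 18305820 in PNA-21, and 15715 of 35741 genes passed the filter on low counts. On the first principal component (30.2% of the variance) control libraries lay at -32.42 to -20.25 and PNA-21 libraries at 11.83 to 18.65. The labelled cell type was checked against its markers. VIM and CD44 were at 1540 CPM or more and 1290 CPM or more in all 6 libraries, EGFR at 267 to 360 CPM, and GFAP, the classical astrocyte filament, at only 1.5 to 4.89 CPM, while SOX2, S100B and ALDH1L1 were under 1 CPM in all 6. Levels are CPM, that is counts scaled to a common library size. Markers of T cells summed to 2.61 CPM or less in every library. Markers of other lineages were not all absent. Neuron markers summed to 115 to 125 CPM in control and 95.7 to 108 CPM in PNA-21, mostly SNAP25 and GAD1. Oligodendrocyte markers summed to 89.3 to 92.7 CPM and 86.2 to 96.8 CPM, nearly all of it CNP. The sums of the fibroblast and microglia lists are given below.

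sgPNA-21 was followed by many small changes. In PNA-21 against control, 2388 genes were higher and 2296 lower at an adjusted p under 0.05 (edgeR quasi-likelihood test, Benjamini-Hochberg adjustment), which is 29.8% of the genes tested, 15.2% higher and 14.6% lower. The median absolute log2 change of these genes was 0.32, and 80.6% of them changed by less than 1.5-fold. The larger changes were mostly falls. At least 1.5-fold, 264 genes were higher and 646 lower, and at least 2-fold 74 were higher and 206 lower. The PNA-21 and control libraries did not overlap for 4480 of the called genes (95.6%), against 42.4% of all genes tested.

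**Figure D1:**
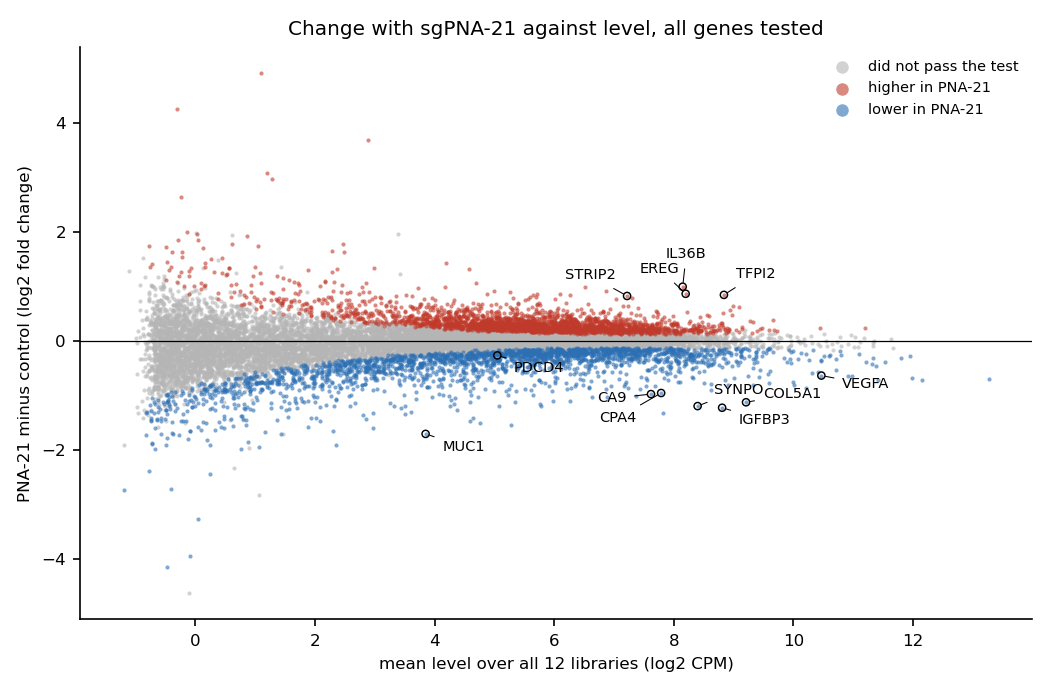
Log2 fold change of PNA-21 against control (vertical axis) against the mean level over all 12 libraries in log2 CPM (horizontal axis), 1 point per gene. Red points passed the test as higher and blue points as lower, grey points did not pass. Called rises mostly stay close to 0 at medium and high level, while falls reach further down across the range, among them IGFBP3, COL5A1 and SYNPO.

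Several of the strongest falls were in genes of secreted or surface proteins. IGFBP3, which binds insulin-like growth factors outside the cell, was at 621, 624 and 622 CPM in the control libraries and at 229, 284 and 284 CPM in PNA-21. The 2 groups were far apart, and the log2 change was -1.23 ± 0.07 (SE, adjusted p = 2.62e-10). MUC1, a membrane mucin, stood at 24.3, 23.7 and 26.3 CPM in control and at 7.14, 7.65 and 7.82 CPM in PNA-21, a log2 change of -1.71 ± 0.11 (adjusted p = 4.64e-09). The 2 groups of libraries were again far apart. SYNPO, an actin-associated protein, went from 472, 479 and 517 CPM to 206, 239 and 195 CPM (-1.20 ± 0.08). CPA4, a secreted carboxypeptidase, went from 292, 276 and 305 CPM to 137, 162 and 148 CPM (-0.96 ± 0.07). Neither gene had overlapping groups. Other large falls were those of SCUBE3 (-1.51 ± 0.10), ZP1 (-1.48 ± 0.12), the matricellular gene CCN4 (-1.42 ± 0.11), IGFBP5 (-1.34 ± 0.12), the pseudogene FER1L4 (-1.32 ± 0.11), CHI3L2 (-1.30 ± 0.11), the vessel-stabilising ligand ANGPT1 (-1.27 ± 0.10), the neurotrophic factors ARTN (-1.20 ± 0.10) and NDNF (-1.20 ± 0.11), and the export pump ABCC3 (-1.16 ± 0.08).

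The strongest rises included several cytokine and growth factor genes. EREG, a ligand of the epidermal growth factor receptor, was at 196, 226 and 188 CPM in control and at 362, 388 and 361 CPM in PNA-21, a log2 change of 0.86 ± 0.08 (adjusted p = 6.43e-08). IL36B, a cytokine of the interleukin-1 family, was at 169, 175 and 164 CPM in control and at 295, 319 and 391 CPM in PNA-21 (0.99 ± 0.08). TFPI2, a secreted inhibitor of serine proteases, was at 323, 334 and 303 CPM and then at 542, 606 and 568 CPM (0.84 ± 0.07). For all 3 genes the lowest treated library was well above the highest control library. STRIP2 (0.82 ± 0.06), BEX1 (1.06 ± 0.10), C6orf223 (0.99 ± 0.10), C6orf141 (0.84 ± 0.07), PNLIPRP3 (0.91 ± 0.12) and ACP7 (0.80 ± 0.07) also rose. So did the noncoding or unnamed transcripts AC005077.4 (1.42 ± 0.14) and PAX8-AS1 (0.99 ± 0.13). BMI1, a Polycomb subunit, rose with a wider spread, from 29.8, 37.1 and 16.6 CPM to 46.4, 62.0 and 50.3 CPM (0.90 ± 0.19). MRPL23 met the size rule too, yet PNA-21 replicate 2 stood at 17.1 CPM between the controls (11.1 to 15.6 CPM) and the other treated libraries (40.3 and 44.2 CPM). MRPL23 lost its call without PNA-21 replicate 3 (log2 change 1.07) and under DESeq2. LDHB (0.97 ± 0.32) lost its call without control replicate 3 (0.61), PNA-21 replicate 1 (0.91) or PNA-21 replicate 2 (0.95), and under DESeq2 (1.02).

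**Figure D2:**
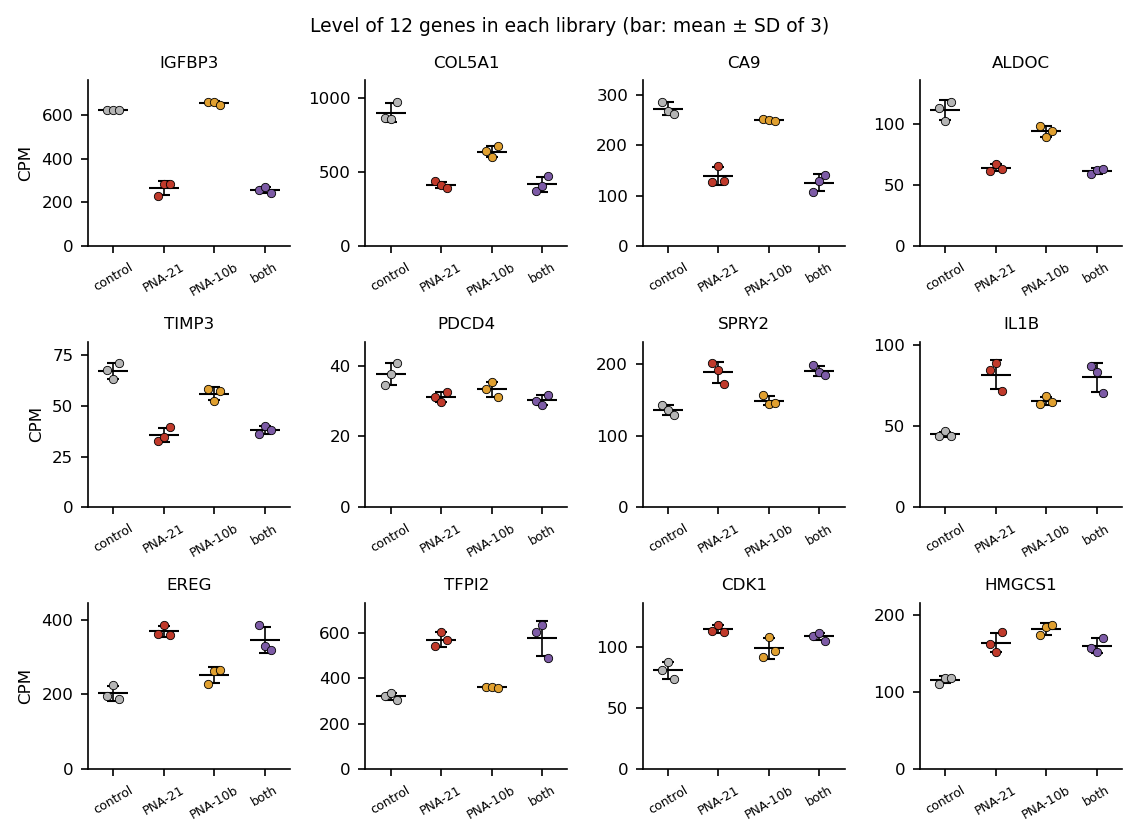
Level of 12 genes in CPM (vertical axes, from 0) in each of the 12 libraries, grouped as control, PNA-21, PNA-10b and both agents. Points are libraries, bars are the mean ± SD of 3 libraries. IGFBP3, CA9, ALDOC and COL5A1 are lower and EREG, TFPI2 and CDK1 higher in the PNA-21 libraries than in the control libraries, while the PNA-10b libraries lie at or between these levels for most of the 12 genes.

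The reported targets of miR-21 did not rise as a group. Of 38 tested genes on that list, 6 were higher and 8 lower, with a median log2 change of -0.10, beside 15.2% higher, 14.6% lower and a median of -0.006 over all genes. PDCD4, whose site is printed above, was at 34.5, 37.5 and 40.7 CPM in control and at 31.2, 29.6 and 32.5 CPM in PNA-21. Every treated library was below every control library, and PDCD4 fell by 0.27 ± 0.07 on the log2 scale (adjusted p = 0.00772). TIMP3, which inhibits matrix metalloproteinases and holds an 8mer, went from 67.7, 63.2 and 71.1 CPM to 32.8, 34.8 and 39.7 CPM, a log2 change of -0.91 ± 0.07 (adjusted p = 1.88e-08). The direction is opposite to relief, and the groups did not overlap. RECK at -0.15 ± 0.07 (adjusted p = 0.0873) did not pass, but did with upper quartile scaling (-0.18) and without control replicate 1 (-0.21). TPM1, an actin-binding tropomyosin, fell (-0.46 ± 0.06), and so did LRRFIP1 (-0.38 ± 0.06), SMAD7 (-0.52 ± 0.13), an inhibitor of TGF-beta signalling, and the TGF-beta receptor TGFBR2 (-0.29 ± 0.05).

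Among the targets that rose, SPRY2 was at 142, 135 and 128 CPM in control and at 201, 191 and 172 CPM in PNA-21 (0.48 ± 0.06, adjusted p = 5.39e-06). YOD1, a deubiquitinase with 3 matches of at least 7 bases in its 3′ UTR, was at 9.39, 12.4 and 9.44 CPM and then at 16.3, 20.8 and 16.4 CPM (0.76 ± 0.13). CDC25A, the phosphatase that activates cyclin-dependent kinases, went from 11.5, 13.4 and 12.3 CPM to 20.7, 17.1 and 15.9 CPM (0.52 ± 0.11). None of these 3 had overlapping groups. PELI1, a ubiquitin ligase of Toll-like receptor signalling, rose as well (0.75 ± 0.17). Presence of a longer site did not separate the directions: of 26 targets with an 8mer or a 7mer-m8 (the seed match alone), 4 were higher and 6 lower, with a median log2 change of -0.10, and of the other 12 targets 2 were higher and 2 lower.

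Across all genes, messages with a miR-21 site were called higher somewhat more often. Of the 12237 tested genes with a 3′ UTR in GENCODE 29, 364 had an 8mer, and 25.5% of these were higher and 14% lower. Of 905 genes whose best site was a 7mer-m8, 21.1% were higher and 15.2% lower, and of 8720 genes without any site 17.5% were higher and 15.5% lower. The median log2 changes were 0.06, 0.021 and 0.01. Base composition moved with the same quantity and over a wider range. Genes were placed in 5 bins of equal size by GC content of the 3′ UTR. In bin 1 (34.5% GC or less) 30.4% were higher and 9.35% lower, against 13.9% and 17.3% in bin 5 (53.8% or more). Sites of miR-21 are AU-rich, and within bin 1 the share higher was 29% for 321 genes with an 8mer or 7mer-m8 and 29.4% for 1593 genes without a site. In bins 2, 3 and 4 genes with such a site were higher in 23.9%, 19% and 14.6%, and genes without one in 19.8%, 15.6% and 12%. In the same bins 13.3%, 19% and 19.1% with a site were lower, and 15.2%, 15.4% and 19% without one. Their median log2 changes were 0.045, -0.007 and -0.06 with a site and 0.032, -0.001 and -0.029 without. In bin 5, with 44 such genes, 13.6% with and 13.8% without a site were higher, and 25% and 17.2% were lower. These shares describe the libraries and were given no test, and the part of base composition in them was not tested. When sgPNA-21 was added to cells that also had sgPNA-10b, the median changes were -0.022 for genes with an 8mer and 0.027 for genes with none. The order by GC content was reversed there too. The medians were -0.017 in bin 1 and 0.067 in bin 5, against 0.093 and -0.014 in PNA-21 against control.

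Most genes of glycolysis fell. This pathway splits glucose to pyruvate, and tumour cells commonly run it at a high rate and export the lactate. Of 23 tested genes of glycolysis and glucose uptake, 20 were lower and 1 higher, with a median log2 change of -0.41. The glucose carrier SLC2A1 went from 311, 287 and 301 CPM to 179, 221 and 157 CPM (-0.69 ± 0.11). PFKL, the liver-type phosphofructokinase at the committed step, went from 387, 379 and 382 CPM to 268, 277 and 259 CPM (-0.52 ± 0.05). ALDOC, an aldolase, went from 113, 102 and 118 CPM to 61.6, 66.9 and 63.0 CPM (-0.80 ± 0.06, adjusted p = 1.35e-08). PGK1, the first ATP-yielding step, went from 2460, 2220 and 2500 CPM to 1470, 1710 and 1440 CPM (-0.64 ± 0.07). None of these 4 genes had overlapping groups. At the end of the route LDHA, which makes lactate, fell by 0.47 ± 0.07 and the lactate exporter SLC16A3 by 0.57 ± 0.09 on the log2 scale. The regulators of the pathway fell too: PFKFB4 (-0.84 ± 0.10) and PFKFB3 (-0.53 ± 0.07), which make the activator of phosphofructokinase, and the pyruvate dehydrogenase kinases PDK3 (-0.57 ± 0.08) and PDK1 (-0.53 ± 0.09).

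The fall was not uniform over isozymes. Hexokinase HK1 was at 493, 471 and 529 CPM in control and at 526, 493 and 478 CPM in PNA-21, with a change of 0.00 ± 0.05, while HK2 fell (-0.24 ± 0.06). The muscle-type phosphofructokinase PFKM rose, from 135, 127 and 140 CPM to 158, 151 and 155 CPM (0.21 ± 0.05, adjusted p = 0.0023). GAPDH passed the test at -0.24 ± 0.07 (adjusted p = 0.0157), but its groups overlapped, with 2070, 2160 and 1820 CPM in PNA-21 against 2510, 2120 and 2510 CPM in control.

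**Figure D3:**
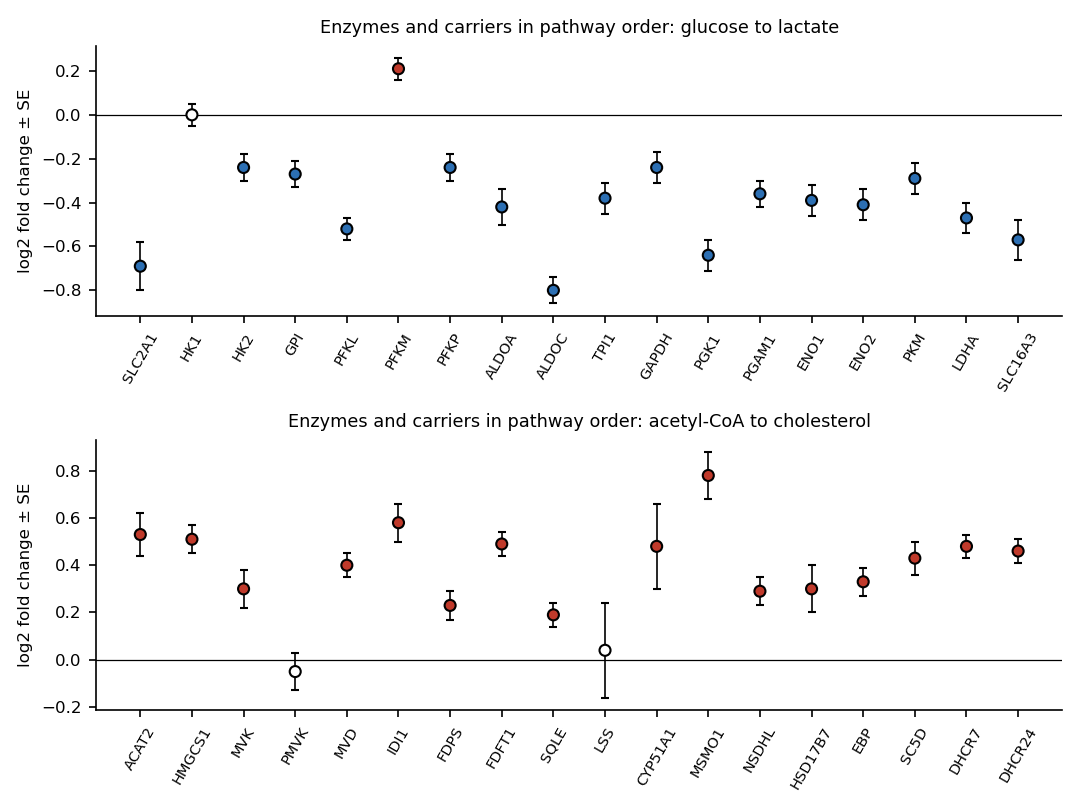
Log2 fold change of PNA-21 against control (vertical axes, points with ± SE of the fit over 3 libraries per group) for selected genes placed in pathway order on the horizontal axes, glucose to lactate above and acetyl-CoA to cholesterol below. Blue points passed the test as lower, red as higher and white did not pass. All points of the upper panel except HK1 and PFKM are blue, and all of the lower panel except PMVK and LSS are red.

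Most listed genes outside glycolysis that are induced by low oxygen fell as well. The hypoxia-inducible factors bind short elements in such genes when oxygen, and with it hydroxylation of the factor, is low. Of 28 tested members 20 were lower and 0 higher, with a median of -0.38. CA9, a carbonic anhydrase of the cell surface, was at 287, 269 and 262 CPM in control and at 127, 159 and 129 CPM in PNA-21 (-0.98 ± 0.08, adjusted p = 4.19e-08). The related enzyme CA12 went from 972, 958 and 1070 CPM to 565, 622 and 570 CPM (-0.77 ± 0.06). VEGFA, the main vessel growth factor, went from 1770, 1730 and 1880 CPM to 1040, 1290 and 1110 CPM (-0.64 ± 0.08). For all 3 genes PNA-21 replicate 2 was the highest of the treated libraries and still below each control. HILPDA, a lipid droplet protein (-0.99 ± 0.11), NDRG1 (-0.82 ± 0.10) and the mitophagy gene BNIP3 (-0.79 ± 0.09) fell by similar amounts. The message of the factor itself, HIF1A, went from 672, 642 and 764 CPM to 580, 579 and 553 CPM (-0.28 ± 0.06). Oxygen, medium glucose and cell density were not recorded per library, so their part was not tested.

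The promoters of these genes were searched for the core letters of the hypoxia response element, ACGTG, on both strands, in RefSeq windows of 300 bases (GRCh38.p14, 250 bases before to 50 after the start). The core was present in 19 of 42 promoters of the glycolysis and hypoxia lists (45.2%), against 26.7% of 10408 promoters of tested genes. It was no more frequent among all lower genes (26.9%) than among all higher genes (27.4%). A second form of the core, GCGTG, was in 50% of the 42 and 50% of all promoters, and in 44.1% of those of lower and 53.7% of those of higher genes. A match of letters is a description of the window and not a bound site. The hypoxia list was made of genes known to be induced by low oxygen, and the letters were present whatever the treatment. The CA9 promoter is printed because the gene's level is given above for each library. Capitals mark the core, here on the minus strand.
CA9 promoter: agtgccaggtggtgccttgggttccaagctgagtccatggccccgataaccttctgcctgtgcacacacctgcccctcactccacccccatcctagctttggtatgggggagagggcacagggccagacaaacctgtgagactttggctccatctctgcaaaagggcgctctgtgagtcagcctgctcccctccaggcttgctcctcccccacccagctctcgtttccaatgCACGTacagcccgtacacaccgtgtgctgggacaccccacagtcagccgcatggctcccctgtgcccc
The window spans chr9:35673678-35673977 on the plus strand.

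Most genes of collagen chains and of the enzymes that finish them fell. Of 24 tested enzymes and chaperones of collagen, 23 were lower and 0 higher (median -0.52), and of 20 collagen chains 14 were lower and 2 higher (median -0.59). COL5A1, which starts collagen fibrils, was at 866, 862 and 977 CPM in control and at 437, 409 and 392 CPM in PNA-21 (-1.13 ± 0.07, adjusted p = 4.64e-09). COL1A1, the main chain of type I collagen, went from 1790, 1610 and 1730 CPM to 984, 919 and 904 CPM (-0.87 ± 0.07), and its partner COL1A2 fell by 0.72 ± 0.07. COL3A1 went from 73.3, 64.6 and 101 CPM to 30.9, 22.6 and 27.1 CPM (-1.55 ± 0.17). Each control library was above each treated library for these chains. COL7A1, the anchoring fibril chain (-0.81 ± 0.07), COL6A3 (-0.72 ± 0.07) and COL5A2 (-0.67 ± 0.07) also fell. The 2 chains called higher, COL4A2 (0.50 ± 0.15) and COL4A6, belong to basement membranes. COL4A2 lost its call without control replicate 1 (0.41) or PNA-21 replicate 2 (0.44), and COL4A6 lost it without any one of the 6 control and PNA-21 libraries (0.18 to 0.23).

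The enzymes fell at each step of collagen maturation. Prolyl 4-hydroxylases, which let the triple helix form, fell through P4HA2 (607, 587 and 671 CPM, then 376, 386 and 359 CPM, -0.73 ± 0.06) and P4HA1 (-0.75 ± 0.07). The prolyl 3-hydroxylase P3H2 (-0.88 ± 0.08) and the lysyl hydroxylases PLOD1 (-0.54 ± 0.05) and PLOD2 (-0.82 ± 0.08) fell, and so did BMP1, which trims procollagen (-0.77 ± 0.07). Of the lysyl oxidases that crosslink the fibrils, LOXL2 went from 1350, 1250 and 1360 CPM to 756, 839 and 752 CPM (-0.76 ± 0.06), LOXL3 from 247, 224 and 259 CPM to 129, 135 and 131 CPM (-0.89 ± 0.06) and LOX fell by 0.67 ± 0.10. No library of one group reached the range of the other for LOXL2 or LOXL3. Both P4HA and PLOD genes are also known to respond to low oxygen, so the lists of this block and of the hypoxia block are not independent.

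Of 24 matrix glycoproteins 17 were lower and 1 higher (median -0.41), beside 14.6% lower and 15.2% higher over all genes tested. Fibronectin FN1 went from 13300, 11300 and 14500 CPM to 8460, 8100 and 7600 CPM (-0.70 ± 0.08). TGFBI (-0.68 ± 0.07), the fibrillin FBN1 (-0.65 ± 0.08), SPARC (-0.60 ± 0.06) and the latent TGF-beta binding proteins LTBP3 (-0.55 ± 0.06) and LTBP1 (-0.51 ± 0.06) fell. CCN3 rose, from 21.9, 20.2 and 20.4 CPM to 30.9, 30.9 and 33.0 CPM (0.60 ± 0.08), against the fall of its relative CCN4. Of 14 laminin and basement membrane genes 9 were lower and 2 higher, with LAMA5 (-0.92 ± 0.10), the perlecan gene HSPG2 (-0.62 ± 0.07) and LAMB1 (-0.39 ± 0.06) among the falls. Of those called higher, LAMA1 lost its call without control replicate 1 (0.22) or 3 (0.24) or PNA-21 replicate 3 (0.23). Integrins, the matrix receptors, gave 10 lower and 0 higher of 15, with the collagen receptors ITGA11 (-1.16 ± 0.14), ITGA10 (-0.87 ± 0.10) and ITGA1 (-0.56 ± 0.07) among them, together with ITGB8 (-0.81 ± 0.12). Of 22 matrix proteases, plasminogen genes and inhibitors 9 were lower and 1 higher. MMP2 fell (-0.39 ± 0.06) along with TIMP3 and the plasminogen activator PLAT (-0.79 ± 0.09), while SERPINB2, an inhibitor of plasminogen activation, rose from 2.35, 2.42 and 2.34 CPM to 8.03, 10.7 and 6.07 CPM (1.78 ± 0.21). The higher count was 4 with no filter on low counts. It was 2 under DESeq2, with the replicate block, with only the groups compared, and without control replicate 1, PNA-21 replicate 3 or PNA-10b replicate 1 or 3. Collagen genes are also fibroblast and pericyte markers: that list of 8 genes summed to 1920 to 2140 CPM in control and 1120 to 1200 CPM in PNA-21, with 4 lower and 0 higher, and the cells are a single line.

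**Figure D4:**
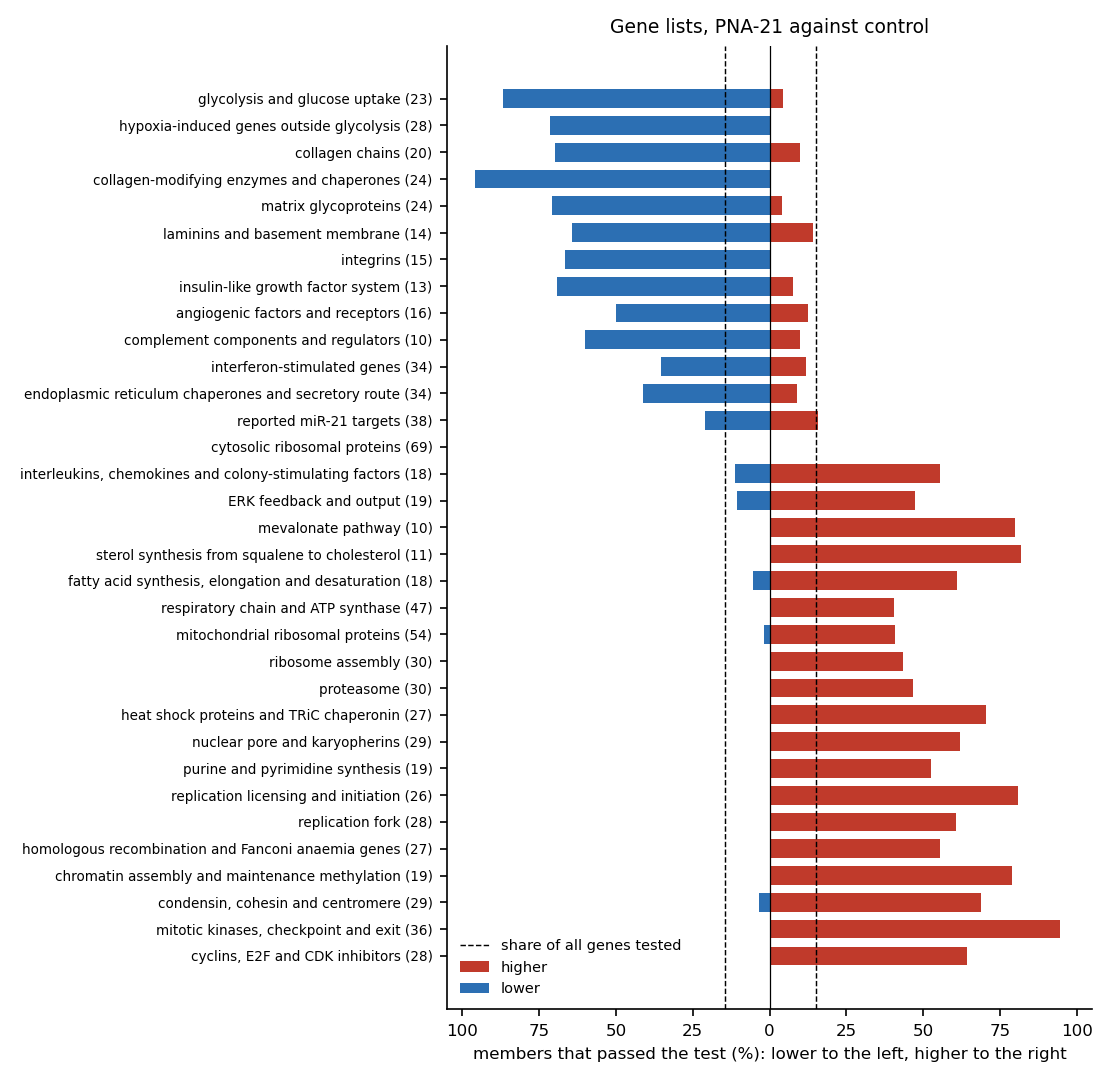
Share of the tested members (number in parentheses) of 33 gene lists that passed the test in PNA-21 against control, lower to the left in blue and higher to the right in red, in percent. Dashed lines mark the shares over all genes tested, 14.6% lower and 15.2% higher. Glycolysis, hypoxia, collagen and matrix lists reach to the left, sterol, replication and mitosis lists to the right, and the cytosolic ribosomal proteins have no bar.

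Among growth factor ligands and receptors more genes were lower than higher, though many did not pass. Over all genes tested 14.6% were lower and 15.2% higher. In each list of this paragraph the rarer direction was under its share of all genes. Of 13 genes of the insulin-like growth factor system 9 were lower and 1 higher. IGFBP1 went from 21.8, 24.4 and 20.3 CPM to 13.2, 15.7 and 14.5 CPM (-0.63 ± 0.09), and IGFBP7 (-0.30 ± 0.06) and STC2 (-0.47 ± 0.08), an inhibitor of the protease that frees the growth factors, fell with IGFBP3 and IGFBP5. The single higher gene, the receptor substrate IRS2, lost its call without control replicate 1 (0.30) or 3 (0.30) or PNA-21 replicate 2 (0.33). Of 16 angiogenic factors and receptors 8 were lower and 2 higher, with ANGPT2 at 4.63, 4.42 and 4.68 CPM and then 1.12, 1.43 and 1.69 CPM (-1.68 ± 0.22), and the coreceptor NRP1 at -0.39 ± 0.05. The 2 that rose, HGF (0.39 ± 0.08) and FGF2 (0.49 ± 0.10), act on receptor tyrosine kinases. Of 16 receptor tyrosine kinases 5 were lower and 1 higher (0 higher without control replicate 3 or PNA-21 replicate 1). The receptors PDGFRB (-0.74 ± 0.08) and EGFR (-0.26 ± 0.06) fell, EGFR from 333, 360 and 344 CPM to 288, 311 and 267 CPM. In the TGF-beta and BMP pathway 13 of 33 were lower and 4 higher, with TGFB2 at -0.73 ± 0.11, BMP2 at 0.78 ± 0.12 and GDF15 at 0.58 ± 0.08, and only 2 were higher without control replicate 3 or PNA-21 replicate 2. Outputs of ERK signalling leaned the other way: of 19 genes 9 were higher and 2 lower, among them ETV4 (0.62 ± 0.08), DUSP5 (0.48 ± 0.08), FOSL1 (0.47 ± 0.07), DUSP6 (0.38 ± 0.08) and ETV5 (0.36 ± 0.06) beside SPRY2. The 2 lower calls, ETV1 and EPHA4, were both absent without control replicate 3 or PNA-21 replicate 3. The immediate early genes FOS (-1.03 ± 0.14) and FOSB (-1.08 ± 0.17) fell, FOS from 161, 129 and 179 CPM to 80.5, 61.1 and 86.6 CPM, while EGR1 was at 0.03 ± 0.09 with overlapping groups.

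Immune lists differed in their more frequent direction. Over all genes tested 15.2% were higher and 14.6% lower. In each immune list below the rarer direction was under its share of all genes. Of 18 tested interleukins, chemokines and colony-stimulating factors 10 were higher and 2 lower (median 0.37). IL1B, an inflammatory cytokine, was at 43.8, 46.8 and 44.1 CPM in control and at 84.6, 88.7 and 71.8 CPM in PNA-21 (0.86 ± 0.08, adjusted p = 1.65e-07). CSF3, the granulocyte growth factor, went from 73.9, 97.4 and 63.2 CPM to 158, 157 and 128 CPM (0.91 ± 0.12), and LIF from 45.5, 51.3 and 39.5 CPM to 78.2, 85.4 and 69.4 CPM (0.76 ± 0.08). None of the 3 overlapped between groups. IL24 (1.78 ± 0.30), TNFSF9 (0.55 ± 0.09) and CXCL2 (0.53 ± 0.10) rose as well. IL6 fell, from 29, 32.3 and 28.6 CPM to 20.8, 24.6 and 18.3 CPM (-0.51 ± 0.10), and the other lower gene, CCL2 (-0.55 ± 0.15), lost its call without PNA-21 replicate 2 (-0.43). CXCL8 was at 0.20 ± 0.15 with overlapping groups. Subunits and feedback genes of NF-kappaB gave 5 higher and 1 lower of 15 (median 0.15), or 3 higher without PNA-21 replicate 2. Interferon-stimulated genes gave 12 lower and 4 higher of 34, among them SAMD9L (39.0, 42.0 and 42.2 CPM, then 22.4, 21.1 and 23.3 CPM, -0.88 ± 0.07) and IFIT1 (-0.79 ± 0.13). Complement genes gave 6 lower and 1 higher of 10, with C1R (-0.70 ± 0.06), C1S (-0.67 ± 0.07) and C3 (-0.44 ± 0.06) lower and the shield protein CD55 (0.42 ± 0.07) higher. Of 10 antigen presentation genes 6 were lower and 1 higher, the peptidase ERAP2 at -0.44 ± 0.05 and the checkpoint ligand CD274 at 0.66 ± 0.10. White cell markers were near 0: PTPRC was at 0 to 1.98 CPM, CD14 at 0.531 CPM or less and CD68 at 0.528 CPM or less. The microglia and macrophage list summed to 17.8 to 18.9 CPM in control and 10.9 to 13.6 CPM in PNA-21, nearly all of it CSF1R.

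Most genes of sterol synthesis rose. Cells make cholesterol from acetyl-CoA through mevalonate and squalene, under control of SREBP factors that act when sterols are low. Of 10 mevalonate pathway genes 8 were higher and 0 lower (median 0.35), and of 11 genes from squalene to cholesterol 9 were higher and 0 lower (median 0.33). FDFT1, which makes squalene, was at 172, 164 and 168 CPM in control and at 238, 227 and 240 CPM in PNA-21 (0.49 ± 0.05, adjusted p = 1.65e-07). HMGCS1, an early enzyme, went from 110, 118 and 118 CPM to 162, 152 and 177 CPM (0.51 ± 0.06), and MSMO1, a late one, from 118, 123 and 90.7 CPM to 187, 183 and 199 CPM (0.78 ± 0.10). The groups did not overlap for these genes. INSIG1, the sterol sensor partner (0.63 ± 0.06), and the fatty acid synthase FASN (0.57 ± 0.05) rose too. In fatty acid synthesis, elongation and desaturation 11 of 18 were higher and 1 lower. The lower one, ACACA at -1.14 ± 0.34, had overlapping groups and lost its call without control replicate 1 (-0.85) or 3 (-1.05) or without PNA-21 replicate 1 (-0.96) or 2. The desaturase SCD was at 2550, 2300 and 2790 CPM and then at 2480, 2430 and 2510 CPM, with no detectable change (-0.04 ± 0.07).

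In the lists of cell division more genes were higher than over all genes (15.2%), by small amounts, and some members did not pass. Of 36 tested mitotic kinase, checkpoint and exit genes 34 were higher and 0 lower, with a median log2 change of 0.34. CDK1, the kinase that drives entry into mitosis, was at 80.8, 87.1 and 73.6 CPM in control and at 113, 118 and 112 CPM in PNA-21 (0.50 ± 0.06, adjusted p = 7.27e-06). ECT2, needed for cytokinesis, went from 106, 117 and 104 CPM to 150, 157 and 149 CPM (0.48 ± 0.05), and AURKB, the centromere kinase, from 25, 27.5 and 23 CPM to 38.0, 38.8 and 40.0 CPM (0.62 ± 0.08). Every treated library was above every control library for these genes and for MAD2L1 (0.57 ± 0.08), the spindle checkpoint gene. Condensin, cohesin and centromere genes gave 20 higher and 1 lower of 29, with HJURP at 0.42 ± 0.07. The lower one, SMC2 (-0.18 ± 0.06), lost its call without control replicate 2 (-0.16) or 3 (-0.14) or PNA-21 replicate 3 (-0.15). Of 28 cyclins, E2F factors and CDK inhibitors 18 were higher and 0 lower, with CKS2 at 0.56 ± 0.06, E2F1 at 0.54 ± 0.07 and CCND3 at 0.47 ± 0.06. Kinesin motors gave 12 higher and 3 lower of 22, or 1 lower without control replicate 3, PNA-21 replicate 2 or PNA-21 replicate 3. The share of cells in each phase was not measured.

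In the DNA replication lists the calls were also higher. Licensing and initiation genes gave 21 higher and 0 lower of 26 (median 0.30), with DBF4 going from 36.7, 44.0 and 33.7 CPM to 62.2, 58.9 and 63.2 CPM (0.68 ± 0.08) and the helicase subunits MCM3 (0.35 ± 0.06) and MCM7 (0.33 ± 0.06) among them. At the replication fork 17 of 28 were higher and 0 lower, led by the clamp loader RFC3 (0.67 ± 0.07) and the polymerase POLD1 (0.39 ± 0.06), and that count was 10 without control replicate 1, control replicate 3 or PNA-21 replicate 1. Homologous recombination and Fanconi anaemia genes gave 15 higher and 0 lower of 27, or 7 without control replicate 1, with RAD54L at 0.59 ± 0.08 and BRIP1 at 0.59 ± 0.08. RRM2, the ribonucleotide reductase subunit, went from 232, 243 and 228 CPM to 343, 353 and 318 CPM (0.53 ± 0.06). Chromatin assembly and maintenance methylation gave 15 higher and 0 lower of 19, with EZH2 at 0.36 ± 0.06 and HELLS at 0.59 ± 0.11. Purine and pyrimidine synthesis gave 10 higher and 0 lower of 19, with PRPS1 (0.45 ± 0.07), PRPS2 (0.43 ± 0.07) and CTPS1 (0.37 ± 0.06).

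Promoters of the mitosis lists were rich in the letters of the cell cycle homology region, TTTGAA, and of the CCAAT box, CCAAT, counted on both strands. Of 69 promoters 50.7% held TTTGAA, 62.3% CCAAT and 33.3% both, against 10.0%, 36.4% and 4.16% of the 10408 promoters of tested genes. Among promoters of all higher genes the shares were 12.5%, 41.7% and 6.21%. Replication promoters held the E2F letters TTTGGCG in 25% and TTTCCCG in 23.2% of 56, against 2.82% and 6.73%. These motifs are known features of such promoters and were present whatever the treatment. The CDK1 window (chr10:60778081-60778380, plus strand, GRCh38.p14) is shown as an example, with both motifs in capitals.
CDK1 promoter: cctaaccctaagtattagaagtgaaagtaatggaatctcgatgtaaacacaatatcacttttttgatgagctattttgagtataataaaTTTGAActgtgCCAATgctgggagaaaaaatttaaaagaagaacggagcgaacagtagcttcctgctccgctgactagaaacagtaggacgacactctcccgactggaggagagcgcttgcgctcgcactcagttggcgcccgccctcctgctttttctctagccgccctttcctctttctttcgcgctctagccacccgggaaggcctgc

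Gene expression machinery was mixed, beside 15.2% higher and 14.6% lower over all genes tested. Not one of 69 tested cytosolic ribosomal protein genes passed the test in either direction, with log2 changes from -0.14 to 0.45 and a median of 0.00. At an unadjusted p under 0.05 in edgeR 2 were higher and 1 lower, and DESeq2 called 1 higher and 0 lower. Without PNA-21 replicate 3 edgeR called 3 higher, and without control replicate 2 it called 4 lower. Genes that build the ribosome in the nucleolus gave 13 higher and 0 lower of 30, among them RRP9 (0.50 ± 0.07) and NOP56 (0.34 ± 0.07). Nuclear pore and karyopherin genes gave 18 higher and 0 lower of 29, with KPNA2 (0.35 ± 0.06) and NUP35 (0.44 ± 0.08). Heat shock proteins and the TRiC chaperonin, which folds actin and tubulin, gave 19 higher and 0 lower of 27. CCT2, a chaperonin subunit, went from 234, 227 and 227 CPM to 298, 277 and 279 CPM (0.31 ± 0.05). The mitochondrial cochaperonin HSPE1 went from 31.7, 30.2 and 20.8 CPM to 41.6, 46.5 and 45.7 CPM (0.68 ± 0.12). Control replicate 3 was the lowest library for HSPE1, as it was for BMI1, MSMO1 and DBF4. Proteasome genes gave 14 higher and 0 lower of 30, or 8 without control replicate 3 and 9 without PNA-21 replicate 1, with PSMD8 at 0.32 ± 0.06. In the endoplasmic reticulum the direction was opposite: 14 of 34 chaperone and secretory genes were lower and 3 higher (1 higher without control replicate 3 or PNA-21 replicate 2), with CREB3L1, a factor that drives collagen secretion (-0.39 ± 0.06), P4HB (-0.34 ± 0.05) and HERPUD1 (-0.31 ± 0.05) among the falls.

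Of the nuclear genes of mitochondria a part passed, nearly all as higher and by small amounts, beside 15.2% higher over all genes tested. Respiratory chain and ATP synthase genes gave 19 higher and 0 lower of 47 (median 0.13). CYCS, cytochrome c, went from 140, 148 and 123 CPM to 191, 227 and 205 CPM (0.60 ± 0.08), and CYC1 from 83.9, 75.4 and 70.1 CPM to 110, 104 and 96.4 CPM (0.43 ± 0.07). The count of 19 was 10 without control replicate 3, 11 without PNA-21 replicate 1, 12 without PNA-21 replicate 2 and 11 with upper quartile scaling. Mitochondrial ribosomal proteins gave 22 higher and 1 lower of 54, with MRPL42 at 0.44 ± 0.07 and MRPS6 at -0.24 ± 0.06. The tricarboxylic acid cycle and pyruvate entry gave 12 higher and 1 lower of 25, with the lipoamide enzyme DLD at 0.24 ± 0.05 and pyruvate carboxylase PC at -0.26 ± 0.06.

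Stress and survival lists held calls in both directions, with lower shares for ATF4 and p53 targets near the 14.6% of all genes. The ATF4 response, which follows amino acid shortage and endoplasmic reticulum stress, gave 11 higher and 4 lower of 28, with TRIB3 at 0.44 ± 0.11 and DDIT4 at -0.34 ± 0.07. The 11 were 4 without control replicate 3 and 6 without PNA-21 replicate 2. In both comparisons with PNA-10b described below, the lower calls of this list outnumbered the higher ones. Targets of p53 gave 9 higher and 4 lower of 33: the BH3-only gene PMAIP1 was at 19.2, 20.1 and 18.9 CPM in control and 28.9, 28.3 and 28.6 CPM in PNA-21 (0.56 ± 0.08), GADD45A rose by 0.32 ± 0.06 and CDKN1A by 0.19 ± 0.05. The lower count was 1 without control replicate 3 or PNA-21 replicate 2, and 2 without control replicate 1, PNA-21 replicate 3 or under DESeq2. The BCL2 family gave 6 higher and 4 lower of 16, where BID fell (-0.36 ± 0.06) and MCL1 rose (0.24 ± 0.06). Metallothioneins and zinc transporters gave 5 lower and 1 higher of 11, or 3 lower without control replicate 1. MT3 went from 4.36, 4.36 and 3.31 CPM to 1.24, 1.78 and 1.58 CPM (-1.40 ± 0.21), and the zinc exporter SLC30A1 rose (0.59 ± 0.13).

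Guidance genes, Notch genes and astrocyte markers gave more lower than higher calls, beside 14.6% lower and 15.2% higher over all genes tested. Of 25 semaphorins, plexins, netrins and slits 9 were lower and 3 higher, with SEMA5A going from 102, 99.7 and 115 CPM to 53.5, 60.2 and 57.2 CPM (-0.89 ± 0.06) and PLXND1 at -0.85 ± 0.11. SEMA3A rose (0.41 ± 0.10), and the count of 3 was 1 without control replicate 1 or PNA-21 replicate 2 or under DESeq2 and 5 without PNA-21 replicate 3. Notch genes gave 7 lower and 1 higher of 16, with LFNG at -1.13 ± 0.17. The 1 higher gene, NOTCH1 (0.28 ± 0.08), lost its call without control replicate 3 (0.24) or PNA-21 replicate 2 (0.20), and a second gene of the list was called higher without PNA-21 replicate 3. SLC1A3, the astrocyte glutamate transporter, went from 92.6, 81.0 and 101 CPM to 49.4, 44.1 and 51.1 CPM (-0.92 ± 0.09), and GFAP (-1.10 ± 0.22) and NES (-0.53 ± 0.10) fell at low level. VIM was at -0.10 ± 0.07, with overlapping groups. The astrocyte and glioma markers gave 5 lower and 0 higher of 8 and the neuron markers 2 lower and 0 higher of 5. The oligodendrocyte markers gave 1 higher and 0 lower of 2. Proneural and stem cell markers gave 3 lower and 2 higher of 12, and the higher count was 1 under DESeq2 and on leaving out any of most single libraries, among them control replicates 1 and 3 and PNA-21 replicates 1 and 2. Few long noncoding genes were called higher, and their lower shares were under that of all genes tested. Of 751 lincRNAs 13.6% fell and 5.19% rose (median log2 change -0.15). Of 975 antisense genes 11.3% fell and 2.46% rose (median -0.16). Over all genes tested 14.6% fell and 15.2% rose (median -0.006). Genes of low level, counted without regard to type, also had few rises. Of the 3143 genes with the lowest mean level 7.19% fell and 1.97% rose (median -0.145). Of the 3143 genes next in level 15.3% fell and 7.38% rose (median -0.082). Noncoding genes were not compared with other genes of like level, so the part of level in their shares was not tested. Antisense counts may hold reads of the opposite strand, since no source used here states the strand setting.

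The change was then set beside that of adding sgPNA-21 to cells that also received sgPNA-10b, PNA-10b+21 against PNA-10b, which shares no library with PNA-21 against control. There 724 genes were higher and 801 lower, 9.70% of the genes tested (4.61% and 5.10%). Of the 2388 genes higher in PNA-21 against control, 79.3% were above 0 there, 466 (19.5%) passed the test in the same direction and 10 in the opposite one. Of the 2296 lower genes 84.3% were below 0, 565 (24.6%) passed in the same direction and 9 in the opposite one. Read the other way, 64.4% of the 724 higher and 70.5% of the 801 lower genes were called the same way in PNA-21 against control. The changes were smaller in the second setting, with medians of 0.11 and -0.15 against 0.29 and -0.38 for the higher and lower genes, where the larger medians are those by which the genes were chosen. Without PNA-10b+21 replicate 1 the second comparison gave 218 higher and 336 lower genes, without PNA-10b+21 replicate 2 it gave 376 and 501. The higher count was 363 when PNA-10b replicate 3 was left out and 446 when it was PNA-10b replicate 2.

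Some blocks recurred in the second setting at like size and others did not. IGFBP3 changed by -1.35 there against -1.23, SYNPO by -1.14 against -1.20, CPA4 by -1.05 against -0.96 and TFPI2 by 0.68 against 0.84. Glycolysis gave 18 lower and 1 higher of 23 (11 lower without PNA-10b+21 replicate 1), and the other hypoxia genes 19 lower and 0 higher of 28. Heat shock and TRiC genes gave 15 higher and 0 lower of 27, a count that was 9 without PNA-10b replicate 2, 7 without PNA-10b replicate 3, and 6 or 7 without PNA-10b+21 replicate 1 or 2. The interaction, the change in the second setting minus the change in the first, passed for 491 genes, 3.12% of those tested, 1.48% higher and 1.64% lower. Only the first setting compares with cells that had no carrier, so agent and carrier cannot be told apart in the interaction. The interaction passed for 0 of 23 glycolysis and 0 of 28 other hypoxia genes in edgeR and in DESeq2. At an unadjusted p under 0.05 in edgeR it was higher for 3 and lower for 1 of the glycolysis genes, and higher for 2 and lower for 4 of the hypoxia genes. For mevalonate enzymes it passed, as lower, in 6 of 10, and for the enzymes after squalene in 5 of 11. HMGCS1 changed by -0.18 in the second setting (adjusted p = 0.0531) and FDFT1 by 0.15, against 0.51 and 0.49. For collagen chains it passed, as higher, in 10 of 20, or 4 without PNA-10b replicate 2. COL1A1 changed by -0.32 there against -0.87, and COL3A1 by 0.08 against -1.55. The ATF4 response gave 1 higher and 13 lower of 28 there, or 7 lower without PNA-10b replicate 2, against 11 higher and 4 lower. Its interaction passed, as lower, in 10 of 28, with 3 to 12 over 18 alternatives. Of the 38 reported miR-21 targets 1 was higher and 5 were lower there, with 2 to 9 lower over 19 alternatives. The mevalonate count stayed between 4 and 7 and that of the later enzymes between 4 and 5 over 18 alternatives. Leaving out a library moved the interaction's count over all genes by more than 1.5 times for most of the libraries. It passed for 109, 1054 and 131 genes without control replicates 1, 2 and 3, for 852, 96 and 267 without PNA-10b replicates 1, 2 and 3, for 129 without PNA-21 replicate 2, and for 161 and 268 without PNA-10b+21 replicates 2 and 3.

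**Figure D5:**
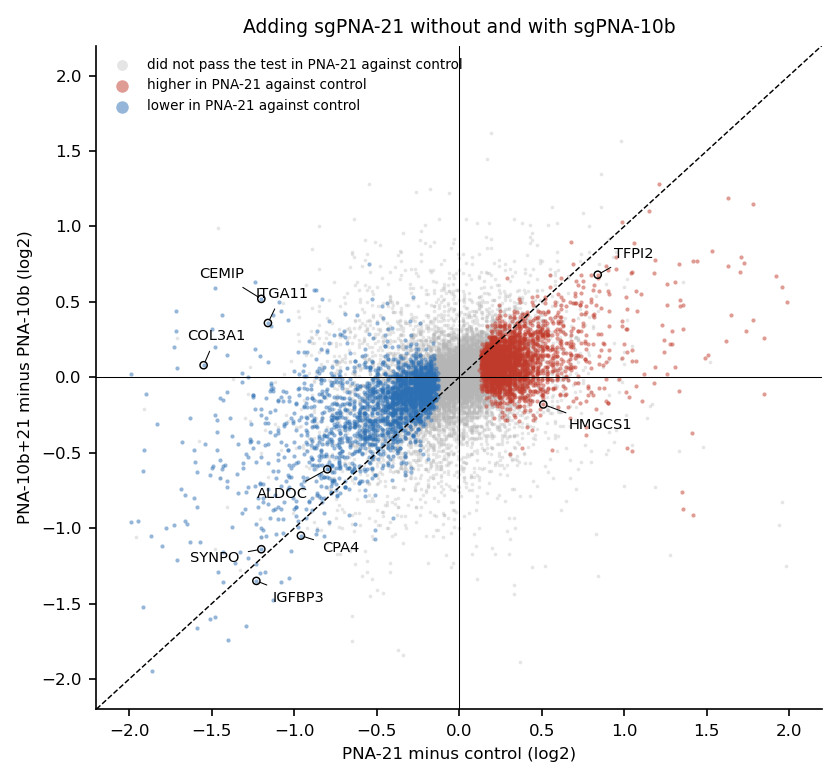
Log2 change of PNA-10b+21 against PNA-10b (vertical axis) against log2 change of PNA-21 against control (horizontal axis), 1 point per gene, coloured by the call in PNA-21 against control. The dashed line marks equal change, and 26 genes lie outside the plotted range. IGFBP3, SYNPO, CPA4 and ALDOC lie near the line, while COL3A1, CEMIP, ITGA11 and HMGCS1 lie near or beyond 0 on the vertical axis.

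PNA-21 libraries were also compared directly with PNA-10b libraries, in which both groups had an agent at the same dose and both had a carrier. Here 458 genes were higher and 609 lower, 6.79% of the genes tested (2.91% and 3.88%). This comparison uses the same PNA-21 libraries as the one with control. Glycolysis gave 15 lower and 1 higher of 23 and the other hypoxia genes 14 lower and 0 higher of 28. IGFBP3 was at a log2 change of -1.30 (adjusted p = 8.36e-11), and ZP1 was at -1.44, MUC1 at -1.26 and CA9 at -0.86. Of the 38 reported miR-21 targets 2 were higher, SPRY2 (0.34, adjusted p = 0.00097) and YOD1 (0.44, adjusted p = 0.0405). The 3 lower ones were TIMP3 (-0.64, adjusted p = 1.05e-05), LRRFIP1 (-0.37) and TPM1 (-0.28). PDCD4 at -0.10 did not pass (adjusted p = 0.446). In edgeR 0 of 10 mevalonate genes and 0 of 11 later sterol genes passed, with 1 higher and 1 lower in each list at an unadjusted p under 0.05, while DESeq2 called 1 mevalonate gene and 0 later genes. Mitotic kinases gave 2 higher of 36, against 34 in PNA-21 against control. The ATF4 response gave 1 higher and 7 lower of 28, against 11 higher and 4 lower in PNA-21 against control. LSAMP (0.67) and RSPO3 (0.67) were among the largest rises, and in PNA-21 against control LSAMP did not pass (0.28 ± 0.13, adjusted p = 0.114) and RSPO3 passed only narrowly (0.29 ± 0.10, adjusted p = 0.0374). RSPO3 lost that call with upper quartile scaling (0.27), under DESeq2, and without control replicate 1 (0.24) or 2 (0.24) or PNA-21 replicate 1 (0.25) or 3 (0.23). Leaving out PNA-10b replicate 1 gave 181 higher and 373 lower genes here. Leaving out PNA-21 replicate 1 gave 199 and 377. The higher count was 285 with PNA-10b replicate 2 left out and 282 with PNA-21 replicate 2 left out.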

How the data were processed

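The deposited counts are whole numbers of reads for 35741 genes in 12 libraries, not normalized by the authors. Per the submitters' processing notes, the tools were HISAT2 2.1.0, SAMtools 1.7 and HTSeq 0.11.0, with build hg38, and the labels' protocols give a stranded poly(A) kit. No source used here states the strand setting, the treatment of reads with several matches or the gene annotation, so genes with near-identical copies (GAPDH, LDHB, HSPE1, CYCS, metallothioneins, ribosomal proteins) and overlapping genes are less certain.

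The filter on low counts (filterByExpr, edgeR 4.0.16, minimum 10) kept 15715 genes with 99.84% of counts. Libraries were scaled with TMM. A single quasi-likelihood fit with 4 group means took the 12 libraries and shared their spread (common biological coefficient of variation 0.0518). The test was checked on simulated data. A gene passed when its p, adjusted by Benjamini-Hochberg within a comparison, was under 0.05. Errors of log2 changes are SE of this fit, and levels are unscaled for gene length. 4 comparisons were made. No replicate pair of a group agreed within sampling noise. The alternatives were DESeq2 1.42.0, other scalings and filters, fewer libraries, the replicate number as a block, and leaving out each library.

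The comparison, the 76 gene lists (1877 of 1938 entries matched, 1691 tested) and the tests were chosen with earlier results of these data known, and no list was tested as a set. Named genes were the 15 largest rises and falls whose groups did not overlap, above a mean of 3 in log2 CPM, the 5 smallest p-values in each direction, up to 6 members per list by p-value with up to 3 of the rarer direction, the reported targets, 5 genes each way in the other comparisons, and markers. SLC2A1, HK1, HK2, GAPDH, LDHA, SLC16A3, PDK1, HIF1A, P4HA1, PLOD2, LOX, FN1, TGFB2, EGR1, CXCL8, SCD, PMVK and LSS were named after their values were seen. Gene structures came from GENCODE 29, and microRNA and promoter sequences from RefSeq (GRCh38.p14), where 10408 tested genes had a promoter. Some genes of the lists are counted but not reported here by name.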

Additional observations from a re-analysis of the deposited data

Results flagged for a closer look

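For 22 of the genes named by size, by p-value or in the other comparisons, the log2 change differed between the 2 settings. This was judged by a test of the difference itself, the interaction of the edgeR fit at an adjusted p under 0.05 over all genes. Only the first setting compares with cells that had no carrier. The parts of agent and carrier in the difference therefore cannot be told apart. Genes named only as members of a list are not included here, although the interaction passed for some of them too. Each value below is the log2 change on adding sgPNA-21 to sgPNA-10b minus the log2 change of PNA-21 against control. The number of genes over the whole table that passed the interaction moved from 96 to 1054 when 1 library was left out. Most of the genes below were named for a large change or a small p in PNA-21 against control. That change is subtracted here, so the choice of genes itself leans the difference to the opposite sign.

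Among genes that fell in PNA-21 against control, the difference was positive, which means a smaller fall or a rise in the second setting. It was 1.88 for TMEM119, 1.72 for CEMIP, which degrades hyaluronan, 1.64 for COL3A1, 1.53 for the collagen receptor ITGA11 and 1.52 for FOSB. It was 0.86 for SCUBE3, 0.86 for ANGPT1, 0.84 for CCN4 and 0.51 for COL5A1. CHI3L1 did not pass in PNA-21 against control, and its difference was 0.91.

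Among genes that rose in PNA-21 against control, the difference was negative. It was -1.06 for BMI1, -0.90 for UBE2D1, -0.86 for C6orf223, -0.86 for the cystine carrier SLC7A11, -0.85 for GULP1, -0.78 for PNLIPRP3 and -0.76 for MTHFD2L. It was -0.68 for TMEM154, -0.64 for IL36B, -0.57 for IL1B, -0.43 for STRIP2 and -0.41 for EREG. SLC7A11 rose by 0.38 ± 0.11 in PNA-21 against control, a call lost without control replicate 3 (0.29) or PNA-21 replicate 2 (0.28). No explanation of these differences was tested.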

How the results depend on the processing

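PNA-21 against control kept both counts within 1.5 times under all alternatives run. Leaving out 1 library gave 1652 to 2402 higher and 1767 to 2344 lower genes, and DESeq2 gave 2105 and 1892. Upper quartile scaling moved the median change of all genes from -0.006 to -0.032 and the higher share of calls from 51.0% to 43.4%. Over the named genes and their alternatives no called change reversed direction.

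Leaving out 1 library gave 181 to 486 higher and 373 to 688 lower genes in PNA-21 against PNA-10b, 218 to 815 and 336 to 895 in PNA-10b+21 against PNA-10b, and 96 to 1054 genes in the interaction. Without the filter on low counts the interaction gave 1074 genes. The causes were not tested. The interaction has no value for the fit with only the groups compared, since it uses all 4.

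The replicate number as a block gave 2486 higher and 2365 lower genes for PNA-21 against control. Deviations of same-numbered control and PNA-21 libraries correlated at 0.0527, 0.109 and 0.0559, not all above 0.1, so the numbers were not taken to pair the samples, although each library correlated best with its own number. Depth limits genes of low level: of the 3143 genes with the lowest mean level, 1.97% were called higher and 7.19% lower.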
